A study of Mus musculus with 67 samples.

Results

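The HoxC cluster is the group of 9 Hox genes on mouse chromosome 15, Hoxc13, Hoxc12, Hoxc11, Hoxc10, Hoxc9, Hoxc8, Hoxc6, Hoxc5 and Hoxc4, named here in their order from the 5′ end. They were selected by gene name from RNA-seq tables of mouse forelimb buds, in which they make up 9 of 46983 gene IDs. All 9 were listed in each of 14 libraries. Levels are given as TPM (a read count corrected for transcript length and scaled to the same total in every library), so that levels of different genes can be compared per length. A total of 6 of the 9 genes reached a TPM of 1 in at least 3 of the 14 libraries, and Hoxc11 and Hoxc12 reached it in none.

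The libraries formed 4 groups. Whole forelimb buds at E9.25 (21 to 23 somites), before Hedgehog (HH) signalling starts in the limb bud (pre-HH), came from WT embryos of the Swiss Webster strain (n = 3) and from embryos labelled Gli3-/- (n = 4), with about 4 pairs of buds pooled per library. The anterior part of forelimb buds at E10.5 (32 to 35 somites, post-HH) came from WT (n = 4) and Gli3-/- embryos (n = 3), with 2 pairs per library according to the labels. The Gli3-/- embryos carried the Xt-J allele, a deletion of the 3′ part of Gli3 in every cell of the embryo, and the methods keep this line on the same strain background. A replicate is thus a pool of buds and not a single embryo. The comparison of genotypes asks whether loss of the GLI3 repressor changed these genes before HH signalling and after it, and the E10.5 libraries hold only anterior tissue, so stage and dissection cannot be told apart in any comparison between E9.25 and E10.5.

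Hox genes encode homeodomain transcription factors that give cells along the body axis and the limb their positional identity. Within each of the 4 mammalian clusters the genes lie in the same transcriptional direction, and those at the 3′ end are switched on earlier and further towards the head than those at the 5′ end. In the limb bud the 5′ genes of HoxA and HoxD are known for patterning the limb segments, whereas HoxC genes are better known in the trunk and in the different vertebral levels of forelimb and hindlimb, with Hoxc4, Hoxc5 and Hoxc6 at the forelimb level and Hoxc9, Hoxc10 and Hoxc11 further caudal. GLI3 is the main transcriptional repressor of the HH pathway in the anterior limb bud.

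Depth was estimated at 38070000 to 56820000 reads per library after rounding, and a TPM of 1 corresponded to 20.7 to 29.3 reads per kb of transcript. Gli3 itself was measured at 84.3, 73.4, 89.7 and 79.1 TPM in the WT libraries at E10.5 and at 40.9, 40.3 and 38.7 TPM in the Gli3-/- libraries. These are gene-level values, in which reads of the deleted part and of the part that the allele keeps are not separated. At E9.25 it was 44.2, 15.8 and 44.6 TPM in the libraries labelled WT and 14.3, 20.6, 20.8 and 19.1 TPM in Gli3-/-. The library labelled E9.25 WT replicate 2 therefore lay within the Gli3-/- range, and the test of each HoxC gene that uses it is also given without it, as are other calls that changed. Group means, ranges and shares include it. This library also had the lowest estimated depth and the fewest genes at 1 TPM or above, 13276 against a median of 15028. For some other genes, Gata4 and Lhx9 among them, all libraries labelled WT at E9.25 lay apart from every Gli3-/- library. The cause of its Gli3 level was not tested. Limb mesenchyme markers (Prrx1, Prrx2, Tbx5, Lhx9, Msx1, Twist1 and Fgf10) averaged at least 1 TPM in every group, 7 of 7. Of 10 spinal cord markers, a tissue rich in HoxC transcripts, 9 averaged under 1 TPM in every group, with Tubb3 as the exception.

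The 9 genes span 115.75 kb in the mm10 build, all on the + strand, and 16 rows of the tables fall in that span. From the 5′ end these are Hoxc13 (ENSMUSG00000001655.6, chr15:102921103-102928814), Hoxc12 (ENSMUSG00000050328.2, chr15:102936757-102938609), Hoxc11 (ENSMUSG00000001656.3, chr15:102954427-102957708) and Hoxc10 (ENSMUSG00000022484.7, chr15:102966796-102971893). The central genes are Hoxc9 (ENSMUSG00000036139.6, chr15:102976439-102985099), Hoxc8 (ENSMUSG00000001657.7, chr15:102990607-102994111) and Hoxc6 (ENSMUSG00000001661.5, chr15:102998257-103011881). At the 3′ end are Hoxc5 (ENSMUSG00000022485.3, chr15:102967443-103017429) and Hoxc4 (ENSMUSG00000075394.4, chr15:103018934-103036852). The Hoxc5 row runs over 50.0 kb, against 3.42 kb for Hoxc5 in RefSeq, and overlaps 6 other rows on the same strand, Hoxc10, Mir196a-2, Hoxc9, Hoxc8, Hoxc6 and Mir615. How the reads of shared exons were divided among these rows is not given in the sources used here, so the levels of Hoxc5 and of the rows it overlaps are uncertain.

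Besides the protein-coding genes the cluster holds 2 microRNA genes, whose mature products are shown because they are the regulatory RNAs encoded between the members. Capitals mark the seed, bases 2 to 8, that pairs with target transcripts. Sequences are those of RefSeq for GRCm38.p6, the assembly that mm10 is built on.
mmu-miR-196a-5p (Mir196a-2, chr15:102973365-102973386, between Hoxc10 and Hoxc9): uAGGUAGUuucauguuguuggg
mmu-miR-196a-2-3p (chr15:102973401-102973422): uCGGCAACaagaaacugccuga
mmu-miR-615-5p (Mir615, chr15:103014926-103014947, within Hoxc5): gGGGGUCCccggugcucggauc
mmu-miR-615-3p (chr15:103014969-103014990): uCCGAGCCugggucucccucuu

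The miR-196 family is known to target Hox transcripts, Hoxb8 and Hoxc8 among them, and its seed occurred in 2 of 1679 mature mouse names in the RefSeq table, miR-196a-5p and miR-196b-5p. The Mir196a-2 row was listed at 0 in all 14 libraries. The Mir615 row was at 0.584 to 1.98 TPM in E9.25 WT, 0.146 to 2.35 TPM in E9.25 Gli3-/- and 0.0902 to 0.802 TPM in E10.5 WT, and it was listed at 0 in every E10.5 Gli3-/- library. Both rows are shorter than the 100-base reads (85 and 92 bases), so their values describe reads of longer transcripts over these positions and not the mature microRNAs.

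Of the 9 members 1 had a promoter window in the RefSeq table. The 250 bases before the RefSeq start of Hoxc4 (chr15:103034145-103034394, + strand, 15.5 kb downstream of the start of the deposited Hoxc4 row) are shown because no other member had a window. The capitals mark TGACCT, the reverse complement of the retinoic acid receptor motif AGGTCA, and GGGCGG, the GC box.
Hoxc4 promoter: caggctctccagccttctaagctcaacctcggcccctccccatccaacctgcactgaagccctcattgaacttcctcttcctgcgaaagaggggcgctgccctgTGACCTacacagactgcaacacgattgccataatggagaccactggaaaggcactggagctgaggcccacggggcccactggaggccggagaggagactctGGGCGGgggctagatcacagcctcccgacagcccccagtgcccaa

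The retinoic acid receptor motif lay 146 to 141 bases before the start and occurs on either strand in 16.3% of the 32851 promoter windows of the table, which run over 300 bases, from 250 before to 50 after each start. The GC box, 45 to 40 bases before the start, occurs in 35.7% of them. The GLI motif TGGGTGGTC had 0 matches in the Hoxc4 window on either strand, against 0.253% of all windows, and the PBX-HOX motif TGATNNAT also had 0 matches, against 8.85%. The 300-base window of Hoxc4, which includes the 50 bases after the start that are not shown, had a GC content of 60.3%, against a median of 52.7%. These counts describe letters in a short window of 1 gene and say nothing of binding.

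The 5′ end of the cluster was nearly silent in both genotypes at E9.25. Hoxc12 and Hoxc11 were listed at 0 in all 7 E9.25 libraries. At E10.5, Hoxc12 reached at most 0.238 TPM, in 2 of the 4 WT libraries, and Hoxc11 at most 0.138 TPM, in 2 WT libraries and 1 Gli3-/- library. Hotair, the antisense RNA between Hoxc12 and Hoxc11, was listed at 0 in all 14 libraries. Hoxc10, a gene of the hindlimb and lumbar level, was at 0.161 TPM in 1 E9.25 WT library and 0.0902 TPM in 1 E9.25 Gli3-/- library, and at 0 in the other five. It was measured at 0.268 to 0.757 TPM in E10.5 WT and at 0.986, 1.02 and 1.39 TPM in Gli3-/- of that stage, where all 3 libraries lay above the 4 WT libraries. It reached the TPM minimum of 1 in 2 of these 7 libraries and so missed the filter of 3 libraries. Without the filter its difference was 0.57 on the log2 scale, with an adjusted p of 0.114 (limma).

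Hoxc13, the most 5′ member, known for its part in hair and nails, was the only member at the 5′ end to reach 1 TPM in a whole group. It was measured at 0.182, 0 and 0.220 TPM in E9.25 WT and at 0.0261 to 0.0980 TPM in E9.25 Gli3-/-. In E10.5 WT it was at 2.11, 1.78, 1.75 and 3.20 TPM, above every E9.25 library. In E10.5 Gli3-/- it was at 0.788, 1.08 and 0.906 TPM, below every WT library of that stage and above every library at E9.25.

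Levels rose steeply from Hoxc9 to Hoxc6. In E9.25 WT, Hoxc9 averaged 1.91 ± 0.533 TPM (SD, n = 3), Hoxc8 averaged 11.2 ± 3.74 and Hoxc6 averaged 37.3 ± 3.72. Hoxc5 and Hoxc4, at 33.7 ± 9.51 and 31.4 ± 7.17 TPM, overlapped with Hoxc6, so the 3 genes at the 3′ end could not be ranked in this group, while each lay above Hoxc8 and Hoxc8 above Hoxc9. The same step down from these 3 genes to Hoxc8 and then to Hoxc9 held in E9.25 Gli3-/-. In E10.5 WT the 3′ genes separated, with Hoxc6 at 36.3 ± 6.24 TPM (SD, n = 4) above Hoxc4 at 18.2 ± 4.05 and Hoxc5 at 15.0 ± 3.71, and the last pair overlapped. Below them came Hoxc8 at 7.34 ± 1.41 TPM and then Hoxc13 and Hoxc9, which overlapped at 2.21 ± 0.680 and 1.84 ± 0.111 TPM.

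In E10.5 Gli3-/- this order was different. Hoxc6, at 8.16 ± 2.76 TPM (SD, n = 3), overlapped with Hoxc8 at 6.56 ± 1.15. Hoxc4 at 3.21 ± 1.68 TPM overlapped with Hoxc5 at 2.65 ± 1.18, and Hoxc5 in turn with Hoxc9 at 1.77 ± 0.318. The TPM ratio of Hoxc6 to Hoxc8 was 2.48 to 5.58 in E9.25 WT, 2.64 to 3.15 in E9.25 Gli3-/-, 3.48 to 7.16 in E10.5 WT and 0.843 to 1.47 in Gli3-/- of the same stage, a description with no test.

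**Figure D1:**
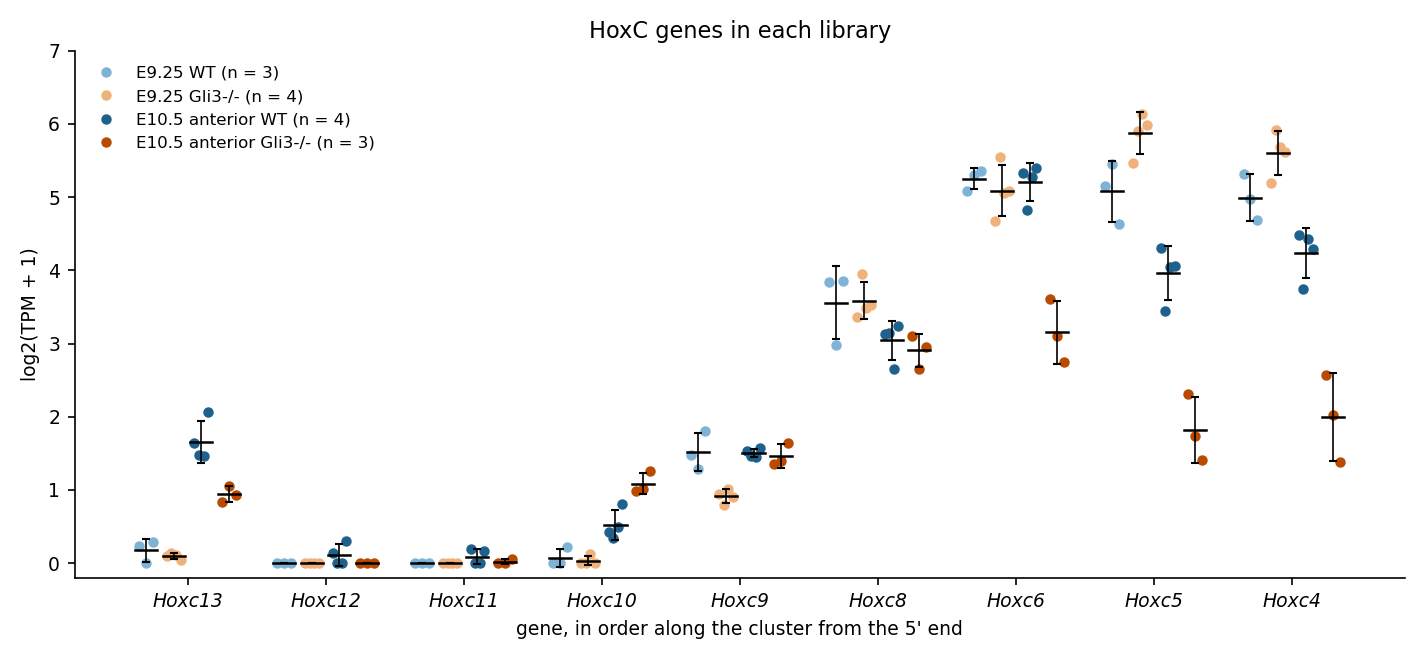
Level of each HoxC gene as log2(TPM + 1) in each of the 14 libraries, in order along the cluster from the 5′ end. Points are libraries, short lines are group means and bars are SD; Hoxc11 and Hoxc12 stay near 0, Hoxc13 is at 0.788 TPM or above in the E10.5 libraries and at 0.220 TPM or below at E9.25, and Hoxc6, Hoxc5 and Hoxc4 are lowest in the 3 E10.5 Gli3-/- libraries.

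The 3 genes at the 3′ end of the cluster fell in the E10.5 Gli3-/- anterior limb bud, and their neighbours Hoxc8 and Hoxc9 were not past the threshold. Of 6 members tested at E10.5, 3 were lower (Hoxc6, Hoxc5 and Hoxc4) and 0 were higher at an adjusted p under 0.05 (limma on log2(TPM + 1), adjusted over all genes tested). In this comparison 4.77% of 15654 genes were called, 1.84% higher and 2.93% lower. The members had a median change of −1.39 on the log2 scale, against −0.02 for all genes.

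Hoxc6, a marker of the thoracic and forelimb level, was measured at 39.3, 27.2, 37.8 and 41.1 TPM in the WT libraries and at 11.2, 7.62 and 5.70 TPM in Gli3-/-. Every Gli3-/- library lay below the lowest WT library. The mean TPM in Gli3-/- was 0.224 times that in WT, and the log2 fold change of TPM + 1 was −2.05 (SE 0.20, adjusted p = 0.000768, limma).

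Hoxc5, which acts with its paralogues at the cervical and shoulder level, was measured at 18.8, 9.87, 15.5 and 15.7 TPM in WT and at 3.95, 2.34 and 1.66 TPM in Gli3-/-. The groups did not overlap. Its ratio of mean TPM was 0.177, and its log2 fold change was −2.14 (SE 0.24, adjusted p = 0.00153, limma).

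Hoxc4, the member at the 3′ end, was measured at 21.4, 12.4, 20.6 and 18.5 TPM in WT and at 4.95, 3.08 and 1.60 TPM in Gli3-/-. Again every Gli3-/- library was below every WT library, with a ratio of 0.176 and a log2 fold change of −2.24 (SE 0.27, adjusted p = 0.00208, limma). In these pooled tissues, fewer cells that express a gene and less RNA of that gene per cell cannot be told apart.

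Hoxc8, a thoracic gene that also acts in motor neurons of the limb, was measured at 7.78, 7.81, 5.28 and 8.48 TPM in WT and at 7.59, 5.32 and 6.76 TPM in Gli3-/-. The Gli3-/- values lay within the WT range, and the log2 fold change was −0.14 (SE 0.17, adjusted p = 0.718, limma). Hoxc9, which sets the boundary between limb and thoracic motor neurons, was at 1.73 to 1.97 TPM in WT and at 1.55, 1.62 and 2.13 TPM in Gli3-/-. These ranges overlapped too, with a log2 fold change of −0.04 (SE 0.13, adjusted p = 0.904, limma).

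Hoxc13 fell short of the threshold although its groups did not overlap, with a TPM ratio of 0.419 and a log2 fold change of −0.72 (SE 0.18, adjusted p = 0.0529, limma). That p lay between 0.0264 and 0.216 over 15 alternative settings and was under 0.05 in 4 of them, so the call for Hoxc13 depended on the processing. The WT libraries, where Hoxc13 was high, took it past the TPM filter, so the filter favoured a lower level in Gli3-/-. Hoxc4, Hoxc5 and Hoxc6 were past the threshold in 16 of 16 alternatives each.

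Marker levels moved with this comparison as well. Summed TPM of the 7 limb mesenchyme markers was 996 to 1231 in E10.5 WT and 748 to 782 in Gli3-/-, with 5 of the 7 lower (Lhx9, Msx1, Prrx1, Prrx2 and Twist1) and Fgf10 higher. Over all genes 2.93% were called lower and 1.84% higher. The 7 surface ectoderm markers summed to 186 to 247 TPM in WT and 298 to 341 TPM in Gli3-/-, with Fgf8 alone called higher. Fgf8 averaged 59.1 TPM in WT and 153 TPM in Gli3-/-, while the means of Trp63, Cdh1 and Esrp1 were lower in Gli3-/-. The means of the other markers of this list were higher. Flank and lateral plate markers were close to 0 in both genotypes, at 1.73 to 3.98 and 1.13 to 1.86 TPM for 9 genes. The part of these marker differences in the HoxC result was not tested.

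**Figure D2:**
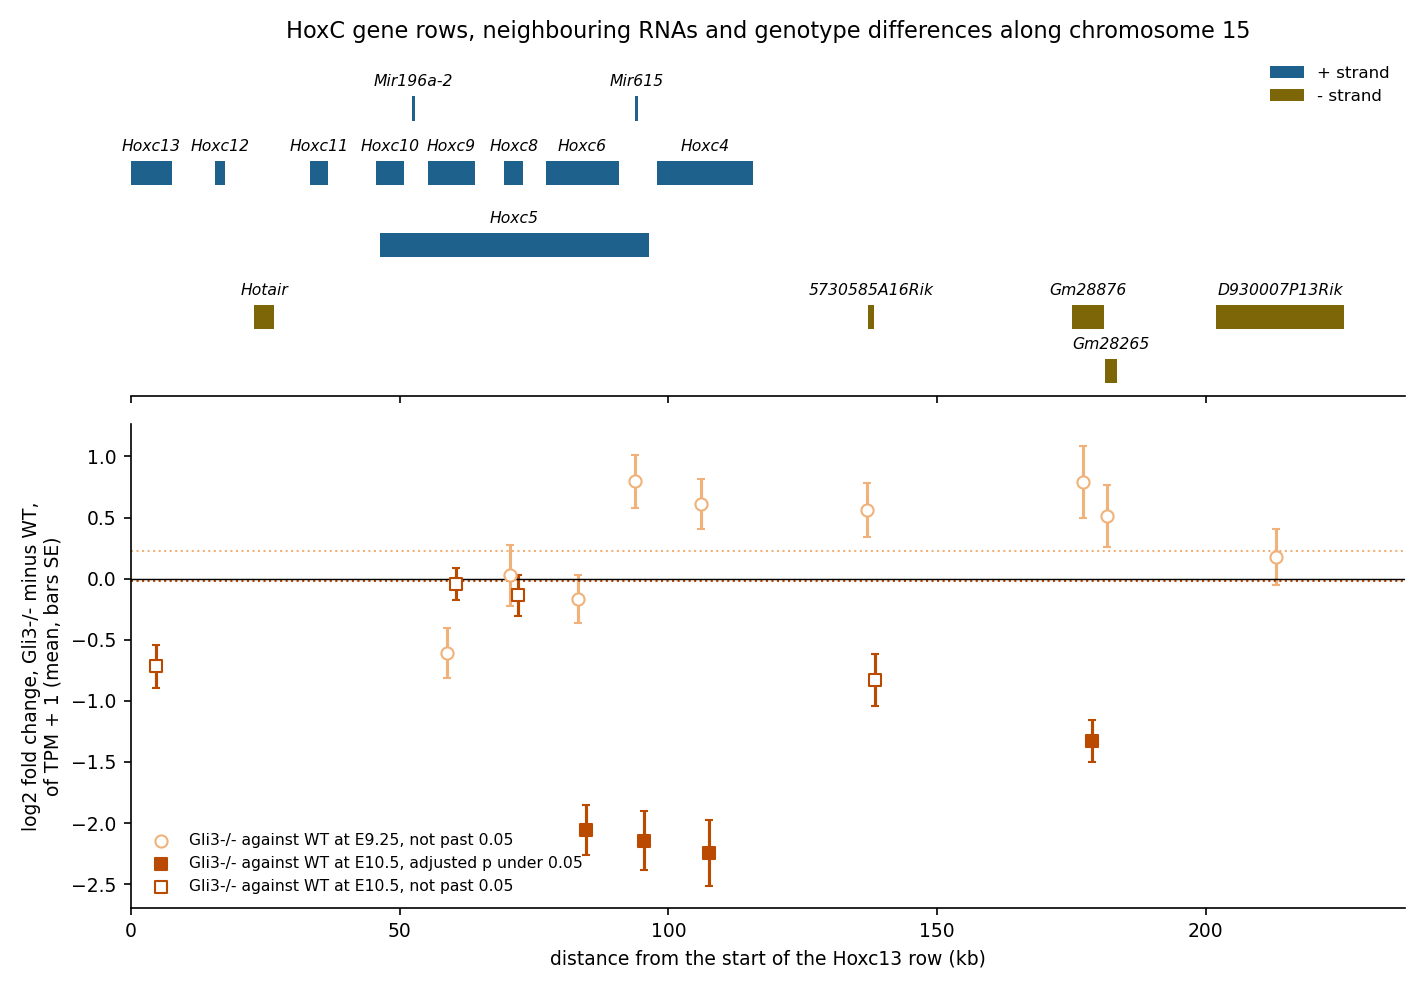
Upper panel: rows of the tables along the HoxC cluster and 3′ of it, by distance in kb from the start of Hoxc13, blue on the + strand and brown on the − strand. Lower panel: log2 fold change of TPM + 1 between Gli3-/- and WT for each tested row (points, with SE as bars; filled where the adjusted p is under 0.05; dotted lines are the median gene), with the Hoxc5 point drawn at the 3′ end of its row. At E10.5, Hoxc6, Hoxc5 and Hoxc4 lie between −2.05 and −2.24 and Hoxc9 and Hoxc8 near 0, while at E9.25 no row is past the threshold.

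At E9.25, before HH signalling, no member passed the test. With limma 0 of 5 members tested were called, against 0.136% of 14760 genes (20 genes), 0.108% higher and 0.0271% lower. At an unadjusted p under 0.05 the count was 3 of 5 members, Hoxc5, Hoxc4 and Hoxc9, against 3247 genes or 22.0% of all tested. The median gene was itself 0.23 higher in Gli3-/- on the log2 scale at this stage, against a median of 0.03 for the members, so each fold change at this stage is also given after subtracting the median gene.

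Hoxc5 was measured at 34.4, 42.8 and 23.9 TPM in E9.25 WT and at 43.3, 58.9, 69.3 and 62.6 TPM in Gli3-/-. Every Gli3-/- library was above every WT library, though the lowest Gli3-/- library was close to the highest of WT. The log2 fold change was 0.80 (SE 0.22, adjusted p = 0.206, limma), and 0.57 once the median gene was subtracted. Without the library labelled WT replicate 2 it was 0.98, with an adjusted p of 0.188.

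Hoxc4 was measured at 39.0, 30.5 and 24.7 TPM in WT and at 35.7, 59.2, 50.4 and 48.2 TPM in Gli3-/-. The groups overlapped through the lowest Gli3-/- library. The log2 fold change was 0.61 (SE 0.20, adjusted p = 0.217, limma), and 0.38 once the median gene was subtracted. Leaving out the library labelled WT replicate 2 gave 0.60 (adjusted p = 0.433).

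Hoxc9 pointed the other way, at 1.79, 1.45 and 2.49 TPM in WT and 0.923, 0.728, 1.02 and 0.875 TPM in Gli3-/-. All 4 Gli3-/- libraries were below the 3 WT libraries. The WT libraries, where Hoxc9 was high, took it past the TPM filter, so the filter favoured a lower level in Gli3-/-. The log2 fold change was −0.61 (SE 0.20, adjusted p = 0.217, limma), and −0.84 once the median gene was subtracted. A fit of all 14 libraries in 1 model gave an adjusted p of 0.0388 for the same difference. Alternative settings of this comparison called 0 to 1185 of all genes, against 20 in the main fit. Without the library labelled WT replicate 2 the log2 fold change of Hoxc9 was −0.73 (adjusted p = 0.335).

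Hoxc6 was at 33.1, 38.5 and 40.2 TPM in E9.25 WT and at 24.6, 45.6, 32.2 and 32.95 TPM in Gli3-/-, a log2 fold change of −0.16 (SE 0.20, adjusted p = 0.597, limma). Hoxc8 was at 13.3, 6.90 and 13.4 TPM in WT and at 9.32, 14.5, 10.2 and 10.6 TPM in Gli3-/-, a log2 fold change of 0.03 (SE 0.25, adjusted p = 0.948, limma). Once the median gene was subtracted these were −0.39 and −0.20, which turned the sign of Hoxc8. Both genes overlapped between genotypes. The lowest Hoxc8 value came from the library labelled WT replicate 2, and without it the fold change of Hoxc8 was −0.26, while Hoxc6 was at −0.14.

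Markers of neighbouring tissue differed between the E9.25 groups. The 9 flank and lateral plate markers summed to 24.5 to 66.2 TPM in the libraries labelled WT and to 84.6 to 229 TPM in Gli3-/-, and 3 of the 7 tested rose, Foxf1 by 3.68, Gata4 by 2.87 and Tcf21 by 1.53 on the log2 scale (adjusted p = 0.0125, 0.0128 and 0.0380, limma). Over all genes 0.108% were called higher at this stage. The Gli3-/- libraries, where Foxf1 and Tcf21 were high, took both past the TPM filter, so the filter favoured a rise for them. At an unadjusted p under 0.05 the count of flank and lateral plate markers was 7 of 7, against 22.0% of all genes. Without the library labelled WT replicate 2 it was again 7 of 7, against 11.0%. Their median difference was 1.53, against 0.23 for all genes. Endothelial markers summed to 40.5 to 62.5 and 75.7 to 116 TPM, with 0 of 4 called and 3 at an unadjusted p under 0.05, against 0.136% and 22.0% of all genes. When the library labelled WT replicate 2 was left out, Foxf1 and Gata4 kept the call (adjusted p = 0.0197 for each) and Tcf21 did not (adjusted p = 0.0725). Since flank tissue next to the bud also expresses Hox genes of these groups, the values stand beside the HoxC levels, and their part in the result was not tested.

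The genotype difference itself changed between the stages for the same 3 genes. In 1 model of all 14 libraries, 3 of 6 members had a lower genotype effect at E10.5 than at E9.25 and 0 had a higher one at an adjusted p under 0.05 (limma), against 2.13% of 16368 genes, 1.65% lower and 0.477% higher. The difference between the stage effects was −2.94 for Hoxc5 (SE 0.36, adjusted p = 0.000685), −2.85 for Hoxc4 (SE 0.37, adjusted p = 0.000994) and −1.89 for Hoxc6 (SE 0.30, adjusted p = 0.00458). Relative to the median gene, which was at −0.24, these were −2.70, −2.61 and −1.65.

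Hoxc13 was at −0.64 (adjusted p = 0.161), Hoxc9 at 0.57 (adjusted p = 0.167) and Hoxc8 at −0.16 (adjusted p = 0.770) in the same limma fit, and none of them passed. The sign for Hoxc8 turned with the scaling, and to 0.12 (adjusted p = 0.825) when the library labelled replicate 2 of E9.25 WT was dropped. Without it the differences were −3.13 for Hoxc5, −2.84 for Hoxc4 and −1.92 for Hoxc6 (adjusted p = 0.000994, 0.00273 and 0.00939), and for Hoxc13 and Hoxc9 they were −0.55 and 0.69 (adjusted p = 0.314 and 0.144). Leaving out any single library kept the count at 3, whereas blocking on the replicate numbers in the titles left 1 call, Hoxc5. The E10.5 tissue was anterior and the E9.25 tissue the whole bud, so this difference compares genotype effects in different parts of the bud as well as at different stages.

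Between the stages the members of the WT bud moved in both directions. Of 6 members tested in WT, 1 rose (Hoxc13) and 2 fell (Hoxc5 and Hoxc4) from E9.25 to E10.5 at an adjusted p under 0.05 (limma), against 48.7% of 15444 genes, 38.1% higher and 10.6% lower. The share called among the members was close to that of all genes. Of the calls over all genes 5885 were higher and 1635 lower, and median-of-ratios scaling turned this split to 3072 and 3333, while the 3 members called kept their directions. The median gene rose by 0.34 on the log2 scale, and the median of the members was −0.28.

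Hoxc13 passed the TPM filter only through the E10.5 libraries, where it was high, so the filter favoured a rise. The call held in 14 of 14 alternatives, 1 of them without a filter. Hoxc13 rose by 1.48 on the log2 scale of TPM + 1 (SE 0.20, adjusted p = 0.000761, limma), from a mean of 0.134 to 2.21 TPM. Since 1 of the E9.25 libraries was at 0 and the added 1 TPM damps low values, this fold change understates the ratio of the means, which was 16.5. Hoxc5 fell by 1.12 (SE 0.24, adjusted p = 0.00686) and Hoxc4 fell by 0.76 (SE 0.21, adjusted p = 0.0190) in the same fit, and for both genes every E10.5 library was below every E9.25 library. Without E9.25 WT replicate 1 the adjusted p of Hoxc4 was 0.0522.

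Hoxc6 had a difference of −0.05 in WT (SE 0.15, adjusted p = 0.812, limma), and Hoxc9 one of −0.02 (SE 0.17, adjusted p = 0.932). Hoxc8 had a difference of −0.52 (SE 0.25, adjusted p = 0.110), and −0.85 once the median gene was subtracted. When the library labelled replicate 2 of E9.25 WT was left out, Hoxc8 was past the threshold at −0.80 (adjusted p = 0.00747). It was also past it after quantile normalization (−0.99, adjusted p = 0.00373) and median-of-ratios scaling (−0.84, adjusted p = 0.00928), 3 of 15 alternatives in all, so its call depended on 1 library and on the scaling. Hoxc6 and Hoxc9 were at −0.02 and −0.14 without that library (adjusted p = 0.928 and 0.548). Hoxc13, Hoxc5 and Hoxc4 kept theirs without it, at 1.40, −0.93 and −0.77 (adjusted p = 0.00131, 0.0118 and 0.0258).

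In Gli3-/- buds the stage difference was larger at the 3′ end. Of 5 members tested, 4 fell (Hoxc4, Hoxc5, Hoxc6 and Hoxc8) and 1 rose (Hoxc9) at an adjusted p under 0.05 (limma), against 25% of 15434 genes, 9.17% lower and 15.8% higher. The median of the members was −1.94 on the log2 scale, against 0.06 for all genes. Hoxc5 fell by 4.06 (SE 0.22, adjusted p = 1.19e-06), Hoxc4 fell by 3.61 (SE 0.26, adjusted p = 7.43e-06) and Hoxc6 fell by 1.94 (SE 0.23, adjusted p = 0.000232).

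The smaller changes were less stable. Hoxc8 fell by 0.68 (SE 0.18, adjusted p = 0.0183, limma) and was past the threshold in 13 of 15 alternatives. It lost the call without E10.5 Gli3-/- replicate 2 (adjusted p = 0.0947) and without replicate 3 (adjusted p = 0.0506). Hoxc9 rose by 0.55 (SE 0.15, adjusted p = 0.0259, limma) and was past the threshold in 8 of 14 alternatives, and it lost the call without any of E9.25 Gli3-/- replicate 4 and E10.5 Gli3-/- replicates 1, 2 and 3. The E10.5 libraries, where Hoxc9 was high, took it past the TPM filter, so the filter favoured a rise. Hoxc13 and Hoxc10 did not reach the TPM filter in this comparison. With no filter they were higher at E10.5 by 0.84 (adjusted p = 0.000574) and 1.06 (adjusted p = 0.000555).

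**Figure D3:**
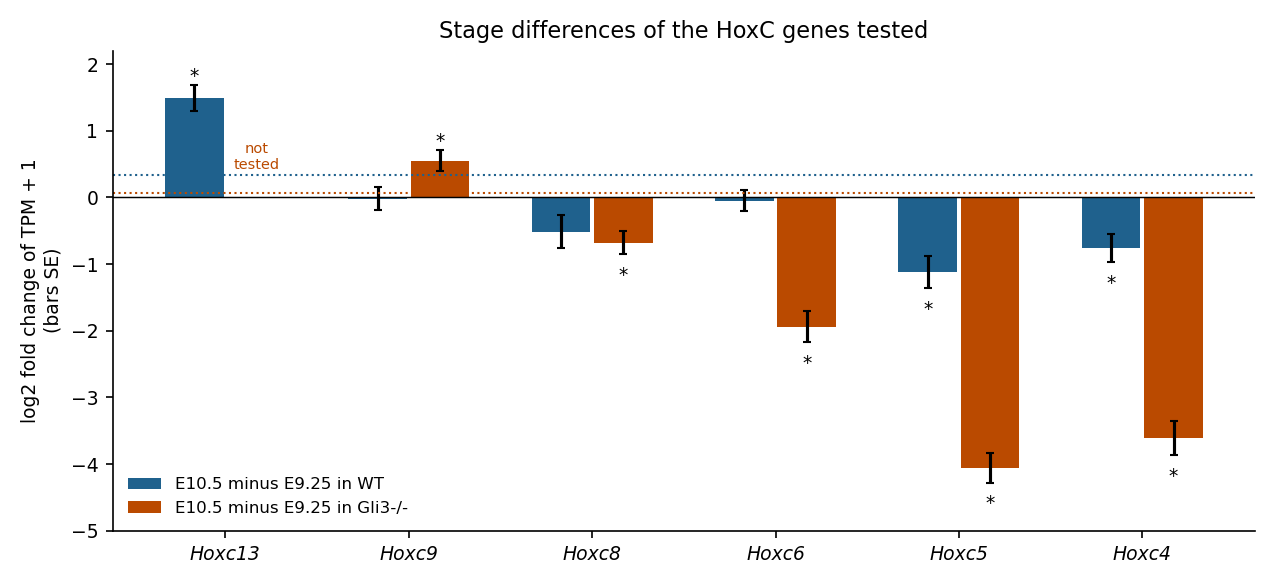
Log2 fold change of TPM + 1 from E9.25 whole buds to E10.5 anterior buds in WT (blue) and Gli3-/- (orange), with SE as error bars, asterisks for an adjusted p under 0.05 and dotted lines for the median gene. Hoxc13 was not tested in Gli3-/-; Hoxc4 and Hoxc5 fall by 0.76 and 1.12 in WT and by 3.61 and 4.06 in Gli3-/-, and Hoxc6 falls by 1.94 in Gli3-/- and has a difference of −0.05 in WT.

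The summed TPM of the 9 HoxC genes was 105 to 122 in E9.25 WT, 114 to 179 in E9.25 Gli3-/-, 61.1 to 91.8 in E10.5 WT and 20.2 to 30.97 in Gli3-/- of the same stage. As a share of the summed TPM of all 39 Hox genes it was 13.5% to 14.7% and 17.2% to 20.1% at E9.25, and 7.84% to 11.6% and 1.81% to 2.94% at E10.5. Hoxc4, Hoxc5 and Hoxc6 held 81.0% to 93.1% of the HoxC sum in the first 3 of these groups and 44.4% to 64.7% in E10.5 Gli3-/-. The HoxD share was 31.4% to 39.1% in WT and 52.6% to 56.2% in Gli3-/- at E10.5, and the HoxB share was 7.89% to 11.1% and 1.24% to 2.36%. These shares are descriptions without a test, and a share also moves with the other clusters.

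Genes with the same number in different clusters are paralogues with partly shared roles, and their sum shows how much of a paralogue group HoxC supplied. Hoxc4 made up 37.5% ± 3.98 (SD, n = 3) of the TPM of its group in E9.25 WT, 35.9% ± 1.43 (n = 4) in E9.25 Gli3-/-, 35.7% ± 5.18 (n = 4) in E10.5 WT and 12.2% ± 4.56 (n = 3) in Gli3-/- of the same stage. Hoxc5 had shares of 32.6% ± 6.56, 37.3% ± 3.28, 30.1% ± 2.73 and 10.4% ± 2.77 in the same order. For both genes the shares of the E9.25 WT libraries overlapped with those of E9.25 Gli3-/- and of E10.5 WT, and the 3 E10.5 Gli3-/- libraries stood below all others.

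Hoxc6 differed from this pattern, with shares of 38.2% ± 6.44 and 33.2% ± 2.39 at E9.25, 62.4% ± 3.13 in E10.5 WT and 40.2% ± 7.57 in Gli3-/- of the same stage. It was the leading gene of its group in the WT anterior bud at E10.5. Hoxc8 held 16.0% ± 2.68 in E10.5 WT and 13.8% ± 1.61 in Gli3-/-, which overlapped, and Hoxc9 held about 1% in each group. Hoxc13 held 9.98% to 32.6% of its group in E10.5 WT and 0.647% to 0.967% in Gli3-/-, where the sum of the group reached 81.5 to 167 TPM.

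**Figure D4:**
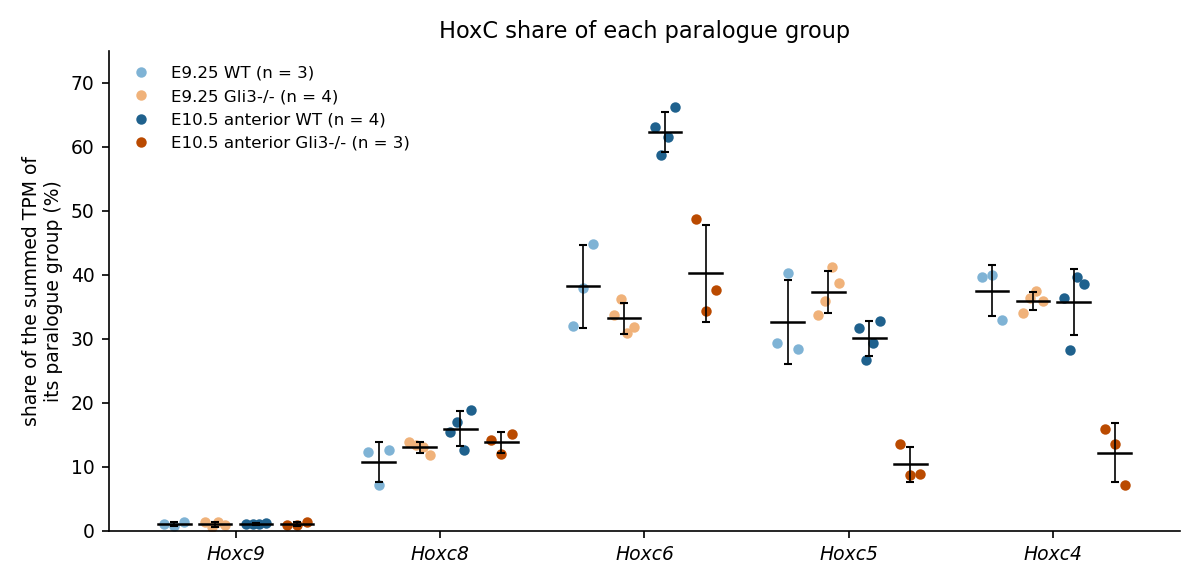
Share of each HoxC gene, in percent, in the summed TPM of the genes with the same number in the 4 Hox clusters, in each library. Points are libraries, short lines are group means and bars are SD; Hoxc4 and Hoxc5 average 12.2% and 10.4% in E10.5 Gli3-/- and 30.1% to 37.5% in the other groups, and Hoxc6 averages 62.4% in E10.5 WT.

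The paralogues in the other Hox clusters were compared at E10.5, where 1.84% of all genes were called higher and 2.93% lower. Of the HoxB paralogues tested, 4 of 4 were lower in Gli3-/- (Hoxb4, Hoxb5, Hoxb6 and Hoxb8) with a median of −1.69, against −0.02 for all genes. Of 7 HoxA paralogues 1 was lower (Hoxa4, at −0.81, adjusted p = 0.0191, limma) and 3 were higher (Hoxa10, Hoxa11 and Hoxa13). Of 7 HoxD paralogues 4 were higher (Hoxd10 to Hoxd13), and Hoxd13, which patterns the digits, rose by 3.99 on the log2 scale (adjusted p = 0.00118, limma). The paralogues of Hoxc13 that were tested, Hoxa13 and Hoxd13, were thus both higher, beside −0.72 for Hoxc13. At E9.25 limma called 0 of 6 HoxA, 0 of 5 HoxB and 0 of 6 HoxD paralogues, against 0.136% of all genes, with 5, 2 and 5 at an unadjusted p under 0.05, against 22.0% of all genes. The medians of these lists were −0.87, 0.20 and −0.87 in that order, against 0.23 for all genes.

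HOX proteins bind DNA with cofactors of the PBX and MEIS families. Of 9 cofactor genes tested at E10.5, 5 were lower in Gli3-/-, Meis1, Meis2, Meis3 and Pbx3 among them, and 0 were higher, against the same 2.93% and 1.84% of all genes. Meis1 and Meis2, which mark the proximal limb, changed by −1.40 and −1.25 (adjusted p = 0.000586 and 0.00119, limma). At E9.25, 0 of 8 were called, 5 of them with an unadjusted p under 0.05 (2 without the library labelled WT replicate 2, when the share over all genes went from 22.0% to 11.0%), and they had a median of 0.55 against 0.23 for all genes.

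Retinoic acid, CDX factors and GDF11 are known to act upstream of Hox genes. Of 8 such genes tested at E9.25, Aldh1a2, which makes retinoic acid, rose by 1.76 (adjusted p = 0.0380, limma; 0.0270 without the library labelled WT replicate 2) and 0 fell. Over all genes 0.108% were called higher and 0.0271% lower. Flank and lateral plate markers were also higher in these Gli3-/- libraries, and their part in the Aldh1a2 difference was not tested. Of 7 tested at E10.5, Cyp26b1, which degrades retinoic acid, rose by 0.78 (adjusted p = 0.0325) and Rarb, a retinoic acid receptor and a target of it, fell by 1.82 (adjusted p = 0.00366). Of 13 genes of the Polycomb and Trithorax groups tested, which keep Hox clusters off or on, 0 were called at either stage. Over all genes 0.136% were called at E9.25 and 4.77% at E10.5. At an unadjusted p under 0.05 there were 6 at E9.25 and 0 at E10.5, against 22.0% and 19.55% of all genes. Without the library labelled WT replicate 2 the count of 6 became 0 and the share over all genes 11.0%. The limb identity genes Tbx5, of the forelimb, and Tbx4, of the hindlimb, had values of 0.13 and 0.40 at E10.5 (adjusted p = 0.654 and 0.457). Of that list 0 of 2 genes passed, with 0 at an unadjusted p under 0.05, against the same 4.77% and 19.55% of all genes.

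RNAs listed 3′ of Hoxc4 were measured next, since 5 rows lie within 100 kb of the cluster there and none within 100 kb on the other side. The antisense row 5730585A16Rik (chr15:103058280-103059306, − strand, 21.4 kb past Hoxc4) was at 3.15 to 4.07 TPM in E9.25 WT, 4.49 to 7.85 in E9.25 Gli3-/-, 0.514 to 1.64 in E10.5 WT and 0.0463 to 0.364 in Gli3-/- of the same stage. At E10.5 only the WT libraries took this row past the TPM filter. Its groups did not overlap at either stage, and its genotype difference was 0.56 at E9.25 (adjusted p = 0.217, limma) and −0.83 at E10.5 (adjusted p = 0.0595). The difference between these effects was −1.39 (SE 0.30, adjusted p = 0.0266), and −1.30 (adjusted p = 0.0660) once the library labelled replicate 2 of E9.25 WT was left out, which ended the call.

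Gm28876 (chr15:103096151-103102111, − strand, 59.3 kb past Hoxc4) was at 1.57 to 2.44 TPM in E10.5 WT and at 0.373, 0.321 and 0 TPM in Gli3-/-. At E10.5 only the WT libraries took it past the TPM filter. Its log2 fold change was −1.33 (SE 0.17, adjusted p = 0.00307, limma), and the difference between the stage effects was −2.12 (SE 0.35, adjusted p = 0.00500), and −1.87 (adjusted p = 0.0112) with replicate 2 of E9.25 WT left out. In WT it rose from E9.25 to E10.5 by 0.81 (adjusted p = 0.0200), opposite to Hoxc4 and Hoxc5. The E10.5 libraries, where Gm28876 was high, took it past the filter there, so the filter favoured a rise. Gm28265 (chr15:103102284-103104602, − strand) and D930007P13Rik (chr15:103123070-103146828, − strand) had differences between the stage effects of −1.28 and −0.82 (adjusted p = 0.0561 and 0.128), which did not pass. Whether the counting used strand is not given in the sources used here, and Gm28265 overlaps Gm10830 on the other strand, so the strand of these RNAs is as annotated and was not measured.

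For each of the 6 members that reached 1 TPM in at least 3 libraries, the genes outside the window with the most similar levels were found by Pearson r of log2(TPM + 1) over the 14 libraries, among 16357 genes. The libraries fall into 4 groups and share stage and tissue, so r is a description of group differences. Hoxc4 was most like Hoxb5 (r = 0.985), Hoxb6 (0.976) and Rarb (0.973), and Hoxc5 was most like Hoxb6 (0.981), Hoxb5 (0.979) and Hoxb4 (0.965). At E10.5, Hoxb5 and Hoxb6 differed between genotypes by −1.92 and −2.64 (adjusted p = 0.0165 and 0.000768, limma), beside −2.24 and −2.14 for Hoxc4 and Hoxc5.

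Hoxc6 was most like Id1 (0.971), an inhibitor of bHLH factors, Msx2 (0.967), a homeobox gene of the limb margin, and Pkdcc (0.944), a secreted kinase. Hoxc8 was most like Ddx20 (0.938), Gtf2h1 (0.935) and Noc3l (0.932), and Hoxc9 most like Oat (0.908), Gbe1 (0.872) and 2610204G07Rik (0.871). Hoxc13 was most like Gdf5 (0.990), the growth factor of joints, Krt9 (0.986) and Cacna1h (0.984). Gdf5 was listed at 0 TPM in all E9.25 libraries and averaged 1.48 TPM in E10.5 WT and 0.514 TPM in Gli3-/- of that stage, so these patterns rest on few reads.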

How the data were processed

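RNA was extracted in TRIzol from pooled mouse forelimb buds, and libraries were made with the NEBNext Ultra II RNA kit and sequenced with single reads of 100 bases. HISAT2 was the authors' aligner and DESeq2 their test. The build in the submitters' processing notes is mm10, and the tool that made the gene tables is not given in the sources used here. The deposited tables give coverage, FPKM and TPM per gene, made by the authors, with replicates kept apart. TPM was analysed. The ratio of the deposited coverage to the deposited FPKM gave each library's depth. Of the 67 samples of the series, the 14 RNA-seq libraries were used, and columns of no sample numbered 0. For 24 gene IDs on more than 1 line the TPM values were summed.

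Groups followed the sample labels. Genes were kept where 3 or more of the libraries compared had a TPM of 1 or above, and were tested on log2(TPM + 1) with limma 3.58.1 in R 4.3.3 (lmFit, eBayes with a trend), with Benjamini-Hochberg adjustment over all genes tested and a threshold of 0.05. Nothing in the labels ties libraries to separate embryos or litters, so p-values measure only the spread between pools. The interaction was fitted over all 14 libraries. Levels, shares and sequence counts used Python 3.11.15, NumPy 2.4.6 and pandas 2.3.3, and figures matplotlib 3.10.9. The limma steps were tested on simulated data. The genes named are the members, Gli3, rows within 100 kb of the cluster, the 3 most similar genes per member and at most 4 genes of each list. The members, lists and motifs were chosen with earlier results of these data known. Alternatives were another pseudocount (0.1), filter, scaling, fit or replicate block, and leaving out each library. For list genes, leaving out the library labelled E9.25 WT replicate 2 was chosen after seeing the data. A comparison of the HOXC homeodomains was not analysed here, and values of 1 cofactor gene are not reported here.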

Additional observations from a re-analysis of the deposited data

Results flagged for a closer look

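Hoxc10 in E9.25 Gli3-/- had 1 library far from the others, at 0.125 on the log2(TPM + 1) scale (0.0902 TPM) above 3 libraries at 0. Of 30 groups of 4 libraries examined in this way 1 stood out. The 3 values at 0 alone fix this flag, whatever the value above them, so the usual chance rate of about 1 in 20 does not apply to it.

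Among the members, the rows beside the cluster and the few genes of each list that the text follows in detail, there were 17 for which the genotype effect at E10.5 differed from that at E9.25 by a test of the difference itself (limma, all 14 libraries, adjusted over all genes). All values here are the E10.5 effect minus the E9.25 effect on the log2 scale. In the HoxC region these were Hoxc4 at −2.85, Hoxc5 at −2.94, Hoxc6 at −1.89, 5730585A16Rik at −1.39 and Gm28876 at −2.12. In the other Hox clusters they were Hoxa4 at −1.74, Hoxb4 at −2.06, Hoxb5 at −2.62, Hoxb6 at −2.84, Hoxb8 at −1.64 and Hoxd13 at 4.74. Over the whole paralogue lists 4 of 7 HoxA genes were higher and 1 lower, 0 of 5 HoxB genes were higher and 4 lower, and 4 of 7 HoxD genes were higher and 0 lower, against 0.477% and 1.65% of all genes. Without the library labelled replicate 2 of E9.25 WT, 3 HoxA genes were higher and 3 HoxB genes lower, with 218 of 16341 genes called. Hoxa10 was the HoxA gene that lost the call (2.07, adjusted p = 0.0564, limma). Among cofactors and upstream genes the genes were Meis1 at −1.98, Meis2 at −1.79 and Rarb at −1.77. The flank and lateral plate markers Foxf1, Gata4 and Tcf21 were at −3.59, −2.99 and −1.41. When the library labelled replicate 2 of E9.25 WT was left out, Hoxb8 (−1.47, adjusted p = 0.0564) and 5730585A16Rik (−1.30, adjusted p = 0.0660) lost the call and the other 15 kept it. Causes were not tested, and the stages differ in the part of the bud that was taken.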

How the results depend on the processing

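The count of HoxC genes past the threshold stayed within 1.5 times the reported count in 77 of 82 alternatives. It was 1 in place of 0 for genotype at E9.25 with all 14 libraries in 1 model, and 5 in place of 3 for stage in WT after quantile normalization. Leaving out each library gave 0 to 0 for genotype at E9.25, 3 to 3 at E10.5, 2 to 4 for stage in WT, 3 to 5 for stage in Gli3-/- (3 without E10.5 Gli3-/- replicate 2 or 3) and 3 to 3 for the difference between the stage effects. Of 454 fold changes of single genes, 421 kept direction and call, 10 gained the call, 11 lost it and 12 turned sign. Hoxc8 turned sign for genotype at E9.25 (−0.26 with quantile normalization, −0.20 with median-of-ratios scaling, −0.26 to 0.17 without single libraries) and for the difference between the stage effects (0.22, 0.10, and −0.31 to 0.12). Hoxc9 turned sign for genotype at E10.5 (0.059 with quantile normalization, −0.13 to 0.014 without single libraries) and for stage in WT (−0.14 to 0.12 without single libraries), as Hoxc6 did (−0.13 to 0.082). None of these had passed the test, and the cause was not tested.

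Counts over all genes moved more. Against 20 genes for genotype at E9.25, alternatives gave 0 to 1185 and leaving out a library 2 to 196. Against 747 at E10.5 these were 164 to 813 and 301 to 680, against 7520 for stage in WT 4699 to 8400 and 5139 to 8305, against 3853 for stage in Gli3-/- 2876 to 4654 and 2129 to 4326, and against 348 for the difference between the stage effects 42 to 433 and 150 to 1433. With median-of-ratios scaling the split of higher and lower calls was 17 and 10 in place of 16 and 4 at E9.25, 2356 and 2298 in place of 2437 and 1416 for stage in Gli3-/-, and 136 and 224 in place of 78 and 270 for the difference between the stage effects. With quantile normalization these splits were 17 and 13, 2342 and 2186, and 164 and 181, and 2668 and 3050 for stage in WT.

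Whether the replicate numbers pair the libraries could not be settled. Deviations of same-numbered libraries from their group means had r of −0.20, −0.16 and −0.19 at E9.25 and 0.15, −0.13 and −0.18 at E10.5. The deposited E10.5 Gli3-/- tables carry the numbers 2, 3 and 4, which gave 0.05, 0.32 and 0.20. Libraries of different number had r of −0.18 to 0.15 under that numbering. With the replicate block, 0 HoxC genes were called for genotype at E9.25, 3 at E10.5 under either numbering, 3 for stage in WT and 4 for stage in Gli3-/-. For the difference between the stage effects 1 was called in place of 3: Hoxc5 kept an adjusted p of 0.0351, and Hoxc4 and Hoxc6 had 0.0530 and 0.0690 (limma).

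Hoxc11 and Hoxc12 in every group, and Hoxc10 and Hoxc13 at E9.25, rest on few reads, which limits the precision of their differences. With no filter, the stage differences of Hoxc10 (adjusted p = 0.0380 in WT and 0.000555 in Gli3-/-) and of Hoxc13 in Gli3-/- (adjusted p = 0.000574, limma) were past the threshold. The Hoxc5 row shares positions with its neighbours under every setting.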

Other observations

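Marker lists of other tissues gave the following sums over their genes, in the order E9.25 WT, E9.25 Gli3-/-, E10.5 WT and E10.5 Gli3-/-. The 8 somite markers summed to 21.4 to 23.9, 19.1 to 27.9, 63.7 to 79.1 and 74.1 to 105 TPM, with Meox2 higher in Gli3-/- at E10.5. The 10 spinal cord markers summed to 6.35 to 12.8, 2.89 to 4.92, 8.43 to 10.2 and 9.77 to 15.7 TPM, and Nkx2-2 was at 0 in all groups. The 4 neural crest markers summed to at most 4.397 TPM, and the hindlimb markers Tbx4 and Pitx1 never to more than 8.65 TPM.

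The 5 erythroid genes summed to 9947 to 18370, 6912 to 23430, 10107 to 13825 and 11936 to 33323 TPM, so blood took a different share of libraries within a group, and 0 of 5 were called between genotypes at either stage (limma, 0 also at an unadjusted p under 0.05). Over all genes 22.0% and 19.55% had such an unadjusted p at E9.25 and E10.5. The part of these lists in the HoxC results was not tested.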
